A study of Mus musculus with 2 samples.

Results

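Of 148982 shared distal sites of open chromatin in the newborn mouse kidney, 881 (0.591%, exact 95% interval 0.553 to 0.632%) consisted for at least 80% of soft-masked, that is repeat-derived, sequence. They were taken from peaks that overlapped in both deposited lists, on chromosomes 1 to 19, with a centre over 1 kb from every transcription start site (TSS) of GENCODE M21 and a deposited signal below 300 in both lists. Soft-masked bases are those that the reference mouse genome (GRCm38, the same build as mm10) writes in lower case as repeats. The masking program is not given. Repeat-derived here therefore means soft-masked, and the kind of repeat is not known. Beyond the need for a peak in both lists, the rule used no measured value other than the signal ceiling. The ceiling left out 28 of 149010 shared distal sites, 4 of them at least 80% masked.

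Transposable elements are stretches of DNA that were copied through the genome, and old copies have since gathered separate mutations. Most copies lie in closed chromatin, while some carry letters bound by transcription factors and can act as enhancers or insulators. In rodents, short interspersed elements of the B2 type are known for carrying binding sites of CTCF, a zinc-finger protein at the anchors of chromatin loops.

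DNase I cuts DNA that no nucleosome covers, so a peak of its cuts marks open chromatin. The 2 libraries were replicates of 1 group, kidney tissue of B6NCrl mice at age 0 days. No treated, mutant or control group is among the samples. Both labels give the same donor record and sex as not collected, and no label states that each came from its own animal. Differences between the replicates may therefore be technical. With a single group there is nothing to test, so comparisons are descriptions over sites, set beside the spread between the replicates.

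The lists held 266133 and 257133 peaks in replicates 1 and 2, and 194662 shared autosomal sites. All 9 kidney marker genes checked (from nephron, stroma and endothelium) had a promoter peak in both replicates, against 0 of 2 liver genes. Sequencing depth is unknown, and intervals cover counting error only.

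Repeat families are not named in the files used here, so alike sites were grouped by sequence (at least 80% identity over at least 100 bp) and the groups were numbered by size. The central sites of the 4 largest groups are shown because their members hold most of the grouped sites and the strongest signals. Each is the plus strand of GRCm38, 5′ to 3′, and capitals mark bases shared by at least 80% of the group's aligned members at positions that at least 50% of the group covers.
Group 1, chr19:43852941-43853130: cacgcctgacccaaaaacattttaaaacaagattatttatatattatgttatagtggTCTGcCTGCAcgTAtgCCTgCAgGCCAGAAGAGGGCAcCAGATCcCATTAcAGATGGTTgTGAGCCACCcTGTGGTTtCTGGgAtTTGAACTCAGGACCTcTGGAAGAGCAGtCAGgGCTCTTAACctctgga
Group 2, chr2:25496621-25496770: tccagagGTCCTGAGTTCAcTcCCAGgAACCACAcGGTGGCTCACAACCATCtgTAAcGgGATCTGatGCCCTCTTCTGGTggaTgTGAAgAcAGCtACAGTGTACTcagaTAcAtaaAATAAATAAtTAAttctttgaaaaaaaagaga
Group 3, chr2:119024681-119024830: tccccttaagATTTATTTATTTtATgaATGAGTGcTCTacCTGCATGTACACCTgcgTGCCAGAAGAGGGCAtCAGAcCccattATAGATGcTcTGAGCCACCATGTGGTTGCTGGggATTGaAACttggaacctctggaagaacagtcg
Group 4, chr12:74804261-74804450: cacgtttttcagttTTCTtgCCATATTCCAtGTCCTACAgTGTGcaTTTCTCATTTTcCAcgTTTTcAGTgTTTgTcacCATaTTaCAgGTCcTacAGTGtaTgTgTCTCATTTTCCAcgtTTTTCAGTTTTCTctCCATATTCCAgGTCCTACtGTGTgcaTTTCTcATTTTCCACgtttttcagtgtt

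Repeat-derived sequence was far scarcer in open chromatin than in the genome around it. At least 80% masked bases were found in 0.591% of shared distal sites, against 17.6% of distal 150-bp windows of the same chromosomes (2639928 of 14969533), so that the windows' share was 29.8 times that of the sites. In the separate lists, 1535 of 205362 distal peaks of replicate 1 (0.748%) and 1565 of 195801 of replicate 2 (0.799%) were this masked, a mean of 0.773% ± 0.0366 (SD, n = 2), and the gap to the genome was many times this spread. Seen from the genome, 0.0478% of masked windows had their middle in a shared site, against 1.46% of the other distal windows.

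The scarcity began well below the 80% threshold. Sites with no masked base made up 47.1% of shared distal sites, against 27.8% of windows. Sites masked throughout numbered 140 (0.0940%), against 11.3% of windows. The ratio of the sites' share to the windows' share went down step by step in between, passing below 1 in the bin above 20 to 40% masked, at 0.802.

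**Figure D1:**
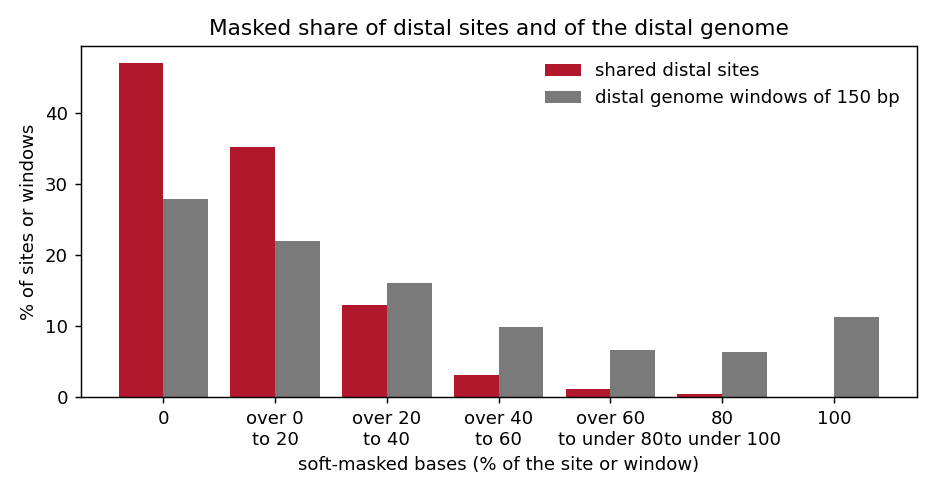
Bars give the percentage of 148982 shared distal sites (red) and of 14969533 distal windows of 150 bp (grey) by soft-masked share. The share of sites exceeds that of windows in the bins up to 20% masked, and the bin of fully masked sequence holds 0.0940% of sites and 11.3% of windows.

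The neighbourhood of the repeat-derived sites was richer in repeats than that of other distal sites, but the masked stretch under the site itself was short. Windows 2 kb to each side of repeat-derived sites were on average 34.7% masked, against 25.5% beside all shared distal sites and 34.3% in all distal windows. In 817 of the 881 sites the centre lay in a masked block, whose median length was 152 bp, against 586 bp for blocks under the centres of masked windows. Blocks under 300 bp made up 86.4% of those under repeat-derived sites, against 33.7% of those under masked windows. Blocks of at least 1 kb made up 0.490%, against 40.1%.

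**Figure D2:**
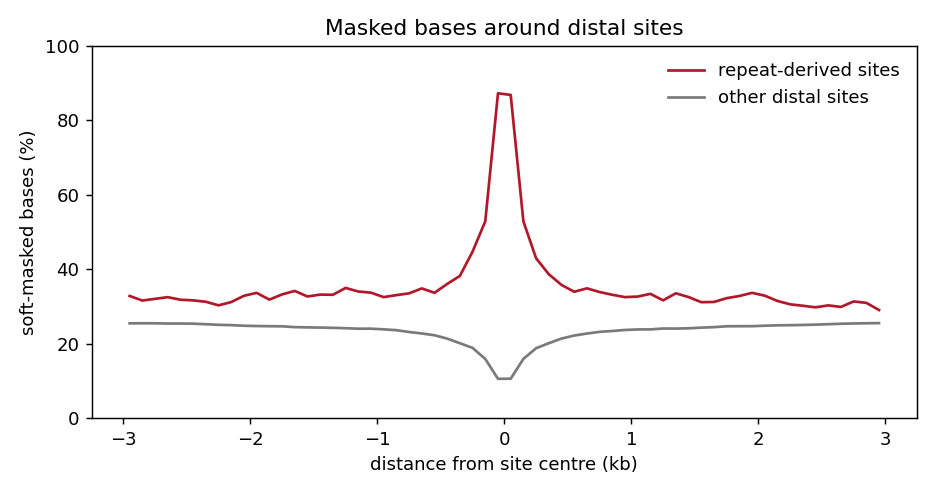
Lines give the percentage of soft-masked bases in 100-bp bins by distance from the site centre (kb), for 881 repeat-derived sites (red) and 148101 other distal sites (grey). The red line reaches 87.3% in the bin just before the centre and 52.9% between 100 and 200 bp, and the grey line dips to 10.6% at the centre, a contrast fixed by the selection on masking.

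Part of the shortfall went with how well a sequence can be told apart from its copies. The reads were 36 nt long, so the share of 36-mers that occur once in the genome was computed for each site. Its median was 91.4% in repeat-derived sites and 100% in other distal sites, against 33.9% in masked windows. Only 233 of the 881 sites (26.4%) were unique throughout, against 96.9% of other distal sites. With sites and windows both limited to at least 90% unique 36-mers, 467 of 146483 sites (0.319%, exact 95% interval 0.291 to 0.349%) were at least 80% masked, against 2.91% of windows, a share in the windows 9.12 times that of the sites. With the windows 2 kb beside the shared distal sites in place of the genome (8.85% masked), the windows' share was 14.96 times that of the sites. The file headers name a track of unique reads made from the same alignments, which was not used here. Neither labels nor headers say whether the peaks were called on uniquely placed reads alone.

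Repeat-derived sites lay closer to genes than either comparison set. Their median distance to the nearest TSS was 6575 bp, against 12228 bp in other distal sites and 21180 bp in masked windows. Between 1 and 2 kb from a TSS 0.808% of sites were repeat-derived, against 10.95% of windows. Between 2 and 5 kb the share of sites was 0.999%, the highest of the 7 distance bins, against 14.4% of windows. Beyond 100 kb it was 0.244% (15 of 6147 sites), against 21.1% of windows. The windows' share was thus 13.6 times that of the sites in the nearest bin and 86.5 times in the farthest.

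**Figure D3:**
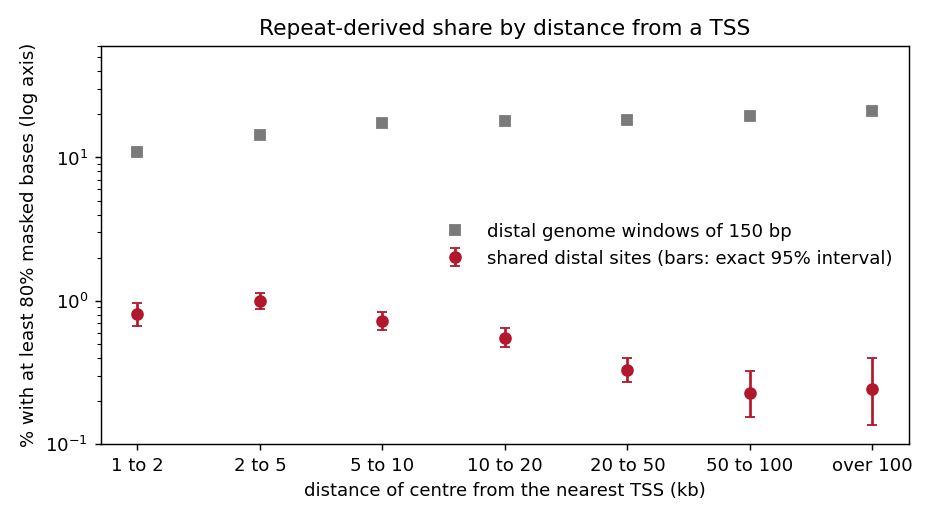
Points give the percentage with at least 80% masked bases (log axis) by distance from the nearest TSS (kb), for shared distal sites (red circles, bars are exact 95% intervals) and distal windows of 150 bp (grey squares). The share in windows goes up with distance to 21.1%, while that in sites is 0.999% at 2 to 5 kb and 0.244% beyond 100 kb.

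By GENCODE M21, 461 repeat-derived sites were intronic (52.3%, exact 95% interval 48.97 to 55.67%), 391 intergenic (44.4%) and 29 exonic (3.29%). Other distal sites were split much the same way, with 52.9% intronic, 41.9% intergenic and 5.17% exonic. The masked windows differed from both, with 31.7% intronic, 67.5% intergenic and 0.806% exonic. The strongest of the 29 exonic sites was fully masked and lay in Stk38, a serine/threonine kinase gene, at chr17:28987841-28988010, where the signal of replicate 1 was 36.2 and that of replicate 2 was 57.8. The nearest TSS belonged to a protein-coding gene for 560 repeat-derived sites (63.6%), against 52.5% of other distal sites, and to a lincRNA gene for 8.17%, against 13.6%.

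Repeat-derived sites were poorer in G and C than other open sites and richer than repeats in general. Their median GC content was 45.3%, against 48.2% in other distal sites and 41.3% in masked windows. The repeat-derived share was 1.67% (16 of 960) among sites of up to 30% GC and 0.205% (13 of 6353) above 60% GC, whereas 7.49% and 31.1% of the windows in those GC ranges were masked. CpG dinucleotides, which are lost when methylated cytosines mutate, were scarce in repeat-derived sites: the median observed over expected ratio was 0.119, against 0.234 in other distal sites and 0.134 in masked windows. Density along the genome varied by chromosome, between 0.217 sites per Mb on chromosome 12 and 0.686 on chromosome 11. As a share of distal sites it ran between 0.371% on chromosome 13 and 0.812% on chromosome 5.

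Signal at repeat-derived sites was lower than at other distal sites in both replicates. The signal is the authors' value for each peak, of unstated scaling, and serves here only to describe and rank. In replicate 1 it ran from 7.12 to 239.6 with a median of 16.0 in repeat-derived sites, against a median of 19.9 in other distal sites. In replicate 2 it ran from 6.55 to 257.8 with a median of 16.9, against a median of 18.7. The ratio of medians was 0.804 in replicate 1 and 0.904 in replicate 2, a mean of 0.854 ± 0.0708 (SD, n = 2). Ranges overlapped widely, and 33.7% of repeat-derived sites in replicate 1 and 41.2% in replicate 2 lay above the median of the other sites. Ranked by mean signal, the lowest decile of distal sites was 0.832% repeat-derived and the highest decile 0.188% (28 of 14899).

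Across the 881 sites the replicates' signals had a Spearman correlation of 0.821 and a Pearson correlation on the log2 scale of 0.889, against 0.871 and 0.915 in other distal sites. Each set shares the same pair of libraries, and the smaller span of signal in the repeat-derived sites was not allowed for. With log2 ratios of replicate 1 over replicate 2 centred on their median over all shared sites (0.01), the median was -0.08 in repeat-derived sites and 0.03 in other distal sites, both small beside the spread over sites (SD 0.344 and 0.356). On that centred scale 7 repeat-derived sites (0.795%) differed over 2-fold, against 0.709% of other distal sites, and 2 of the 7 were higher in replicate 1 and 5 in replicate 2.

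**Figure D4:**
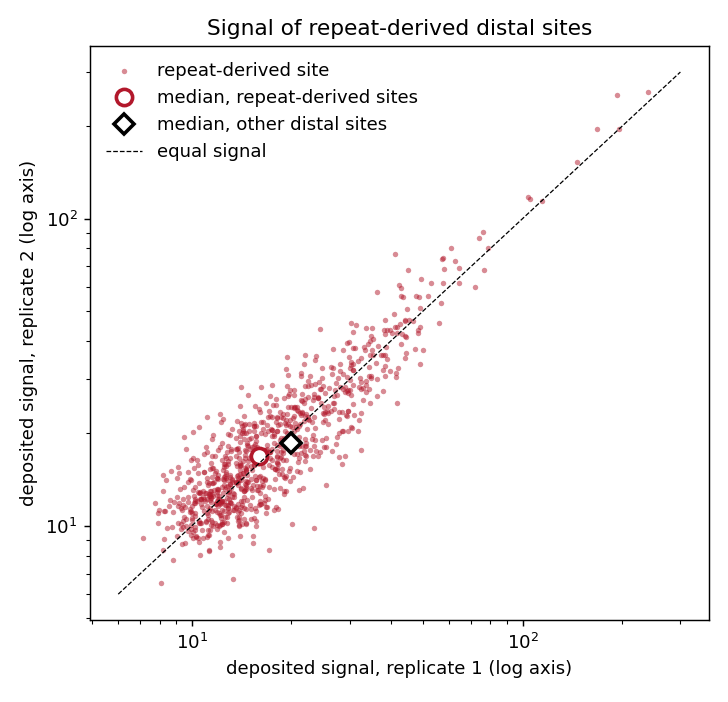
Each red point is 1 of 881 repeat-derived sites, by the deposited signal in replicate 1 and replicate 2 (log axes). The circle marks the medians of repeat-derived sites (16.0 and 16.9), the diamond those of other distal sites (19.9 and 18.7), and the few points at the upper right are the sites with a signal of 100 or more.

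Peaks over masked sequence were found in the other replicate somewhat less often. Of 1531 such distal peaks of replicate 1 below the ceiling, 1015 (66.3%, exact 95% interval 63.9 to 68.7%) overlapped a peak of replicate 2, against 73.0% of other distal peaks. Of 1561 in replicate 2, 1024 (65.6%, interval 63.2 to 68.0%) overlapped a peak of replicate 1, against 76.6%. Within deciles of signal the gap did not hold in replicate 1. Masked peaks were found again less often than others in its deciles 1, 2 and 6 and more often in the rest. In its lowest decile 24.5% of masked and 26.3% of other peaks were found again. In decile 5 it was 86.8% (interval 80.8 to 91.4%) against 75.35% (interval 74.75 to 75.9%). In its highest decile all 38 masked peaks and 99.1% of others were found again. In replicate 2 masked peaks stayed below others in the lower deciles, with 24.9% against 33.1% in the lowest. The 881 sites leave out the 516 masked peaks of replicate 1 and the 537 of replicate 2 that were not found again.

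The strongest repeat-derived sites came from group 4. The highest signal, 239.6 in replicate 1 and 257.8 in replicate 2, was at chr14:19417461-19417610, in an intron of Gm21738 and 1394 bp from its TSS. Another pair of sites lay within about 2 kb of it, at chr14:19416581-19416730 with 195.9 and 196.3 and at chr14:19415761-19415930 with 193.5 and 251.9. Next came chr9:3022101-3022270 near Gm10718 with 168.1 and 196.2, and chr12:3109981-3110130 near the pseudogene Gm9075 with 145.6 and 152.4. These 5 sites were all members of group 4. Only 1 of them was made of unique 36-mers throughout, and the rest had between 30.4 and 54.8% unique. The group 4 sequence shown above repeats itself, with the letters CCATATTCCA recurring within it. The search for tandem repeats covered short periods only, so longer repeated units were not looked for. Whether reads from other copies raised the signals of these sites was not tested.

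The other 5 of the 10 strongest sites belonged to no group or to other groups. A site 15125 bp from the lincRNA gene Gm14486, at chr2:30693061-30693210, had 114.3 in replicate 1 and 114.1 in replicate 2, and its GC content was 62%. The site near Gm28502 (chr15:75085561-75085810) had 105 and 115.9. Its sequence had 36912 autosomal distal copies, itself included, 2 of which lay in a shared site. The site near Gm49484 (chr15:99469181-99469330) had 76.2 and 90.8, with 7 such copies, itself included. The site in an intron near the TSS of Gsta4, a glutathione S-transferase gene, had 73.8 and 86.8 at chr9:78194021-78194190 and belonged to group 3. When sites with under 50% unique 36-mers were left out, 3 more entered the 10 strongest, near the pseudogene Gm5466 with 78.7 and 80.03, near Ust, a sulfotransferase gene of glycosaminoglycan synthesis, with 76.5 and 68.1, and near Grsf1, an RNA-binding protein gene, with 60.8 and 80.5.

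The site near Gm49484 is shown because it holds the letters TGANTCA of AP-1, the Fos and Jun dimer, in capitals on the plus strand of GRCm38, 5′ to 3′.
Near Gm49484, chr15:99469181-99469330: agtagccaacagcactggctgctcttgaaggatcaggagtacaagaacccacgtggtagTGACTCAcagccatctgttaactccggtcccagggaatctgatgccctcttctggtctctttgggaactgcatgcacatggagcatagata

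Most of the sites resembled another one. A similar partner was found for 508 of the 881 sites (57.7%), 454 sites fell into 55 groups, and 427 were in none, some of them because their partners had already been placed in a group. Groups 1, 2 and 3 held 160, 52 and 44 sites, group 4 held 14 and group 5 held 11, so that the 5 largest groups held 31.9% of all repeat-derived sites. The medians for grouped sites were 16.1 (signal, replicate 1) and 17.5 (replicate 2), against 15.7 and 16.6 for ungrouped sites. Their median GC content was 44.0%, against 47.3% for ungrouped ones, and their median share of unique 36-mers was 83.5%, against 98.6%.

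The groups differed widely in the share of copies of their central site that lay in a shared site. Central sites were picked for having most similar members, so members of the group can be among the copies counted in a shared site. The shares thus follow in part from how the groups were made. A copy was a genome match of at least 80% identity over at least 100 bp, and overlapping matches were counted once. It was in a shared site when its middle was. Counts of autosomal distal copies include the site itself. The central site of group 1, in an intron 4315 bp from the TSS of Gm24400, had 68762 autosomal distal copies, of which 245 (0.356%, exact 95% interval 0.313 to 0.404%) lay in a shared site. For group 2, centred 2785 bp from Lcn12, a lipocalin gene, it was 120 of 63844 copies (0.188%). For group 3, centred in an intron 4621 bp from Ccdc32, it was 109 of 2037 (5.35%, interval 4.41 to 6.42%), a share that does not overlap those of groups 1 and 2. Group 4, centred 20989 bp from Gm39473, had 14 of 32 copies in a shared site (43.8%, interval 26.4 to 62.3%). The share depends on the member used: for the 5 strongest members of group 4 it was 8 of 51 (15.7%), 9 of 51 (17.6%), 9 of 38 (23.7%), 14 of 46 (30.4%) and 15 of 38 (39.5%). The whole reference held 242 other matches of the central site, and tandem units that match as overlapping stretches count once. The group 4 shares cover copies in the reference only. Whether reads from other copies contributed to the group 4 peaks was not tested, so these shares do not give how many copies were open. Group 5, centred in an intron 3590 bp from 1810017P11Rik, had 43 of 33446 (0.129%). Of all masked windows, which were not picked by likeness to a site, 0.0478% had their middle in a shared site.

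Members of a group were not uniform in signal. Group 1 had medians of 15.6 and 17.4 in replicates 1 and 2 and highest values of 60.8 and 80.5. Group 3 had medians of 18.1 and 20.7 and highest values of 73.8 and 86.8. Group 4 had medians of 36.5 and 34.9, the highest of the 10 largest groups in both replicates. Its central site, shown above, had only 27.3 and 29.2.

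In 3 of the 4 group sequences shown, a single stretch recurs, CCAGAAGAGGGC, on the plus strand in groups 1 and 3 and on the minus strand in group 2. The site shown near Gm49484 also holds it, on the minus strand. This stretch was the commonest of all 12-base stretches in the central 150 bp of repeat-derived sites, and was singled out after the sequences were seen. It occurred, on either strand, in 350 of 881 sites (39.7%, exact 95% interval 36.5 to 43.1%), against 0.682% of other distal sites and 1.12% of masked windows. Group 1 held 121 of these sites, groups 2 and 3 held 35 each, group 4 held 0 and 111 were in no group. The median signal of sites with the stretch was 16.2 (replicate 1) and 17.9 (replicate 2), against 15.7 and 16.0 without it.

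The stretch lay near the centre of the sites. Of 354 matches within 75 bp of a centre, 243 (68.6%) were within 25 bp, with a median offset of -3.5 bp. Between 75 and 500 bp from the centres, on both sides together, there were 51 matches. The stretch was picked from the central 150 bp of these same sites, and the sites were picked for masked bases. The contrast beyond 75 bp follows in part from these choices.

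**Figure D5:**
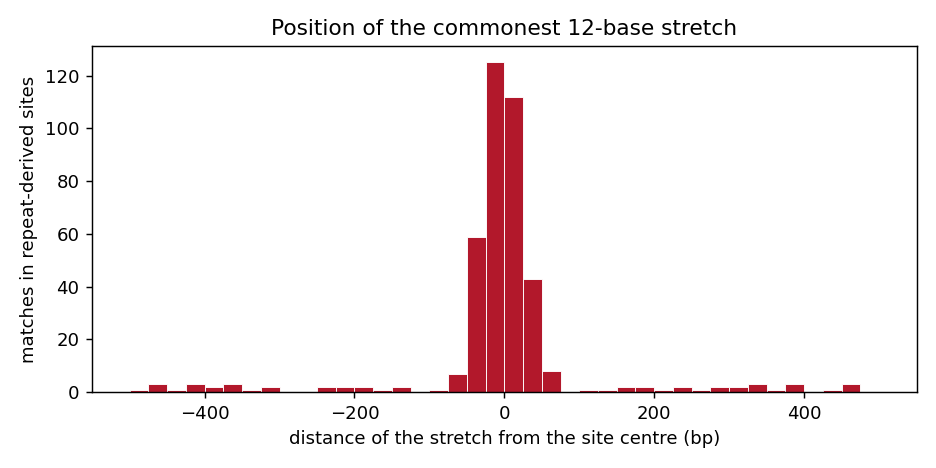
Bars count matches of the commonest 12-base stretch on either strand in and around the 881 repeat-derived sites, in bins of 25 bp by distance from the site centre. The 4 bins nearest the centre hold 59, 125, 112 and 43 matches and no bin beyond 75 bp holds more than 3. The stretch was picked from the central 150 bp, so the drop beyond 75 bp is partly fixed by that choice.

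Most copies of the stretch were not in a shared site. A copy outside the shared sites need not be closed, since the treatment of reads with several placements is unstated. Masked distal sequence of the autosomes held it 44830 times, and 1385 of these (3.09%, exact 95% interval 2.93 to 3.25%) lay in a shared site of any masked share. Windows around the copies in a shared site were 100% unique at the median, against 50.4% around the copies that were not in a site. The median GC content of the windows around copies in a site was 45.3%, against 40%, and their median masked share was 64.7%, against 100%. By distinctness of the surrounding window, 3 of 10694 copies (0.0281%) with under 25% unique 36-mers were in a site and 890 of 7328 (12.1%, interval 11.4 to 12.9%) with all 36-mers unique.

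The base before the stretch also differed. Of copies preceded by G (GCCAGAAGAGGGC), 971 of 9259 (10.5%) lay in a shared site, against 1.10% of those preceded by A, 1.43% by C and 1.31% by T. In the repeat-derived sites 227 of 350 (64.9%) had G there, against 20.7% of all masked copies. Among copies with all 36-mers unique, the shares in a site were 12.4% with G, 11.9% with A, 8.72% with C and 11.4% with T, and their intervals overlapped. Among copies with under 50% unique 36-mers, 5 of 505 with G (0.990%, interval 0.322 to 2.29%) and 14 of 14534 with A (0.0963%, interval 0.0527 to 0.162%) were in a site, and these intervals did not overlap.

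The stretch has all but the eighth of the CTCF letters searched for, which were CCA, any pair of letters, AGG, any letter and GGC. These exact letters were in 44 repeat-derived sites (4.99%, interval 3.65 to 6.65%), against 3.11% of other distal sites and 0.0684% of masked windows. With the eighth letter left free, a form added after the stretch was seen and which includes it, 466 sites (52.9%) matched, against 6.88% of other distal sites and 1.60% of masked windows. A match of letters is a description of the sequence, and no measurement of bound CTCF was made.

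Among the other 25 motifs searched on both strands in the central 150 bp, a few were commoner in repeat-derived sites than in either comparison set. The RUNX letters TGTGGTT were in 207 sites (23.5%), against 3.67% of other distal sites and 4.97% of masked windows. Group 1 held 90 of these sites, group 2 held 32, group 3 held 24 and group 5 held 9. The sequences of groups 1, 2 and 3 shown above hold these letters, on either strand, within their shared capitals. The B box of RNA polymerase III promoters, GTTCNANNC, was in 168 (19.1%), against 4.34% and 10.1%, and 65 of them belonged to group 1. The letters of AP-1 (TGANTCA) were in 72 sites (8.17%, interval 6.45 to 10.2%), against 6.90% and 2.23%. The interval includes the share of other distal sites, so that difference is within counting error. The p53 letters were in 9 sites (1.02%), against 0.288% and 0.366%.

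Several motifs were scarcer in repeat-derived sites than in other open sites. Letters of the E-box CAGCTG were in 8.74% of repeat-derived sites, against 16.1% of other distal sites and 3.30% of masked windows. The TEAD letters GGAATG were in 7.72%, against 13.1% and 7.70%. The WT1 letters GNGTGGGNG were in 3.06%, against 5.88% and 4.86%. The GATA letters AGATAAG were in 2 sites (0.227%), against 1.74% and 1.72%. The HNF4 letters CAAAGTCCA, the CRE letters TGACGTCA and the longer letters of RFX, NFI, NRF1 and MEF2 were in 0 of 881 sites. That allows up to 0.418% each, against at most 0.364% of other distal sites, so these differences are within counting error.

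Few genes had several repeat-derived sites nearby. Within 50 kb of the most 5′ TSS, 1726 of 20780 autosomal protein-coding genes (8.31%) had at least 1. Of these 1621 had a single one, 1 had 3 and 3 had 4. Os9, a lectin gene of protein quality control in the endoplasmic reticulum, and its neighbour B4galnt1, a ganglioside synthesis gene, shared the same 4 sites on chromosome 10. The strongest of the 4, at chr10:127125341-127125490, had 29.6 in replicate 1 and 23.7 in replicate 2. Slc7a15, of the amino acid transporter family, also had 4, with the strongest at chr12:8571881-8572050 (30.1 and 32.6). Gm21738 had the 3 strong sites of group 4 described above. The next genes had 2 each and were ordered by alphabet only: 1600015I10Rik, 1700001P01Rik, 1810055G02Rik, 2310061I04Rik, 4930442H23Rik and A4galt.

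Genes of kidney cell types had repeat-derived sites about as often as any gene. In 8 lists of nephron, collecting duct, stroma and endothelium genes, 7 of 81 genes (8.64%, exact 95% interval 3.55 to 17.0%) had a site within 50 kb, against 8.31% of all autosomal protein-coding genes. Of distal sites counted near these 81 genes 0.655% were repeat-derived, against 1.18% near all genes. In these counts a site enters once for each gene within 50 kb. With each shared distal site counted once, the share was 0.591%. In the proximal tubule list 3 of 12 genes had 1 site each. They included Lrp2, the endocytic receptor megalin (12.9 and 15.9 in replicates 1 and 2), and Slc34a1, a phosphate transporter, which is named because the count is small.

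Elsewhere in the kidney lists, single sites lay near Fgf8, a growth factor of early nephrons (8.23 and 11.2), Tcf21, a transcription factor of podocytes and stroma (9.08 and 15.5), Ren1, the renin gene (12.3 and 13.4), and Pecam1, an endothelial adhesion gene (16.0 and 16.3). No site lay within 50 kb of the most 5′ TSS, the distance used for all these counts, of Six2, Wt1, Pax2, Hnf4a, Umod, Gata3, Foxd1 or the liver gene Alb, although Six2 had 20 distal sites there and Foxd1 had 24. None of the genes of the nephron progenitor, distal tubule, collecting duct and liver lists had one, among them Crym, Eya1, Calb1, Cldn16, Aqp2 and Aqp3. By the same distance Dll1, Cd2ap and Cdh5 of other lists had none, although the TSS nearest to 1 site, at 11002 bp, was another one of Cd2ap. In the leukocyte list 4 of 10 genes had at least 1 (40%, interval 12.2 to 73.8%), against 8.31% of all autosomal protein-coding genes. They were Cd68 with 2 sites and Spi1, Itgam and Lyz2 with 1 each, named after their values were seen.

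Around the masking threshold signals were close. The 276 sites masked for 80 to under 85% had median signals of 16.9 and 17.6 in replicates 1 and 2, against 16.4 and 16.5 in the 267 sites masked for 75 to under 80%. Nearest inside the TSS limit were sites 1008 bp from Ddx46 and 1009 bp from Gm17825, and nearest outside were sites 977 bp from Kif14 and 993 bp from Pnrc1. Above the signal ceiling lay 4 masked sites, the lowest at chr2:98663801-98663950 with 301.7 in replicate 1 and 355.2 in replicate 2, and the highest at chr9:35305361-35305530 with 2160 and 6022.

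Repeat-derived sites stood more alone than other distal sites. The centre of another shared site lay within 1 kb of the centre of 244 of them (27.7%, exact 95% interval 24.8 to 30.8%), against 37.9% of other distal sites. Among themselves, 30 neighbouring pairs lay within 10 kb and 10 within 1 kb.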

How the data were processed

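DNase-seq was done on newborn mouse kidney in 2 replicates. The authors deposited 1 narrowPeak list per replicate, from alignments of 36-nt reads to mm10 (minimal set), per the file headers. Neither labels nor headers name the aligner, peak caller, thresholds or depth. The deposited signal (column 7) is in unstated scaling, and the deposited −log10 p (column 8) was not used. Peaks of both replicates that overlapped by at least 1 bp were joined into shared sites, with the highest signal per replicate. Masked share, GC content, and the copy number of every 36-mer (both strands, all primary sequences) were read from RefSeq GRCm38.p6, whose masking program is not given. The comparison windows were all distal 150-bp windows of the autosomes without N. Short tandem repeats were runs of at least 20 bp with periods up to 6. Sites were compared with blastn 2.17.0 and grouped greedily, most linked site first. Motifs were exact letters. The central site of a group is the one with most similar sites. Named are the 10 strongest sites (also after leaving out those under 50% unique or mostly tandem), the 10 protein-coding genes with most sites within 50 kb, 2 genes per kidney list, 9 fixed genes, the central sites of the 5 largest groups and the sites nearest each threshold. A strong site and a gene of this rule are counted but not reported here. Members, lists and rules were chosen with earlier results of these data known. The merging, masking, 36-mer and motif steps were tested on simulated data. The tools were numba 0.67.0, scipy 1.17.1, numpy 2.4.6, matplotlib 3.10.9 and pandas 2.3.3 under Python 3.11.15.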

Additional observations from a re-analysis of the deposited data

How the results depend on the processing

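Each recomputed value was set against the SD between the values of the 2 replicates' own peak lists, which for the signal ratio is 0.0273, smaller than the 0.0708 between replicates over shared sites. Of 57 values, 24 moved by less than that SD, but 4 of the 24 could not move, since no site was mostly short tandem repeats. Only the ratio to the genome and the signal ratio have a direction, and none of their values turned it. The share of repeat-derived sites was 2.87% with at least 50% masked bases, 0.0940% with 100%, 1.95% over the central 50 bp, 0.631% with an overlap of at least 75 bp, 0.458% in the upper 50% of signal and 0.470% over 5 kb from a TSS, and 0.746 to 0.797% in single replicates. Its ratio to the genome was 0.0991 with at least 50% masked bases, 0.00833 with 100%, 0.0863 over the central 50 bp, 0.0358 with the 75-bp overlap, 0.0260 in the upper 50% of signal, 0.0253 over 5 kb from a TSS, 0.0668 against flanking windows and 0.110 with at least 90% unique 36-mers, and 0.0423 to 0.0452 in single replicates. Median GC was 46.8, 43.3 and 50% with at least 50% masked, 100% masked and the central 50 bp, 45.9% in the upper 50% of signal and 46.0% in single replicates. The signal ratio was 0.793 with 100% masked bases and 0.821 with the 75-bp overlap, and 0.829 to 0.867 in single replicates. The intronic share was 52.0% with at least 50% masked bases, 52.9% with 100%, 52.6% with the 75-bp overlap, 52.6% over the central 50 bp, 49.9% in the upper 50% of signal and 48.4% over 5 kb from a TSS, and 52.0 to 52.3% in single replicates. Removing the signal ceiling or lowering it to 100 moved no value beyond that SD. The cause of the moves was not tested. The SD rests on 2 replicates and was 0 for GC. Depth is unknown, so no precision per site can be given, and sites under 50% unique 36-mers rest on an unstated treatment of reads with several placements. No paired analysis was possible because there is only 1 group of samples.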
